A study of Mus musculus with 17 samples.

Results

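The ribosomal protein genes of the mouse were examined in H3K27ac HiChIP libraries of differentiating embryonic stem cells. The genes were chosen by symbol, as protein-coding genes of the mm9 annotation named Rpl or Rps followed by a digit, together with Rplp0, Rplp1, Rplp2 and Rpsa, without pseudogenes and without the Rps6k kinases. This gave 85 of 22367 protein-coding genes. Of these, 45 encode proteins of the large ribosomal subunit, 31 encode proteins of the small subunit, 8 are paralogs of such genes (Rpl3l, Rpl7l1, Rpl10l, Rpl22l1, Rpl36al, Rpl39l, Rps4y2 and Rps27l), and 1, Rps19bp1, carries the prefix but encodes a protein that binds RPS19 and is no ribosomal protein itself. The choice also named the contrast between both groups of libraries, the class of loop partner and the loop span, so these are given as a description. Calls from a fit over all genes are used below to sort the members, and they are no independent evidence about the family.

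All 17 libraries came from mouse embryonic stem cells that formed embryoid bodies in hanging drops and were then grown in 0.5 µM retinoic acid for 4 days. The 12 bulk libraries were made from the whole mixed population. The 5 cluster2 libraries were made from cells of the same culture scheme that had been sorted by FACS as positive for both EpCAM and CD38, surface proteins chosen by the study as markers of 1 subpopulation. The study ran 5 sorts, but whether each library holds the cells of a single sort is not given in the sources used here. Both groups therefore share the line, the drug and the day, and no untreated library was analysed here. Nothing in the labels says that the libraries of a group came from separate cultures, so p-values measure only the spread between these libraries, which may be technical.

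HiChIP joins a chromosome conformation experiment to an immunoprecipitation. Fixed chromatin is cut, neighbouring ends are ligated, and ligation products that carry the histone mark are sequenced. H3K27ac is an acetylation of histone H3 found at active promoters and enhancers. A read pair between a pair of marked intervals, called anchors, is counted as contact, and the intervals it joins form a loop. A change in read pairs can come from a change in the mark, in the contact or in the set of intervals, and these cannot be told apart in such counts, nor can a change in the share of a cell type and a change within its cells.

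Ribosomal proteins assemble with ribosomal RNA in the nucleolus and each enters the ribosome as a single copy, with the stalk proteins as the known exception. Their genes are scattered over nearly all chromosomes, are transcribed in every dividing cell. Many of them start transcription within a short stretch of C and T, the terminal oligopyrimidine (TOP) tract, through which the translation of their mRNAs follows growth signals. None of this was measured here.

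The start sites are shown first, because runs of C and T near them played no part in choosing the genes. RefSeq promoter windows (GRCm38.p6, 250 bases before to 50 bases after a start, the first listed for each gene) were matched by symbol for 63 of the 85 members. Each sequence below covers 30 bases on either side of the RefSeq start, was located in mm9 by exact match of the whole window, and has in capitals the longest unbroken run of C and T that touches the stretch from 20 bases before to 30 bases after the start. Rpl18 (chr7:52973411-52973470, plus strand), Rpl23 (chr11:97643724-97643783, minus strand), Rps18 (chr17:34092581-34092640, minus strand) and Rps27 (chr3:90017541-90017600, minus strand) had more read pairs in cluster2. Rpl31 (chr1:39424666-39424725, plus strand) and Rps21 (chr2:179992054-179992113, plus strand) had fewer.
Rpl18: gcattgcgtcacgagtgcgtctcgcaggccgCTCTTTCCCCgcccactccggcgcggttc
Rpl23: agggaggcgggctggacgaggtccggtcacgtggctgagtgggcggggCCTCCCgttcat
Rps18: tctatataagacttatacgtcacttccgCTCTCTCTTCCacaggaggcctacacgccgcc
Rps27: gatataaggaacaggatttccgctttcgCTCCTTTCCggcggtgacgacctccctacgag
Rpl31: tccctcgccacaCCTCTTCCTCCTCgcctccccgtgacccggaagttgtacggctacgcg
Rps21: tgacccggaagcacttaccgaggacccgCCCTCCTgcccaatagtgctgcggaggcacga

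The run was 10 bases at Rpl18, 11 at Rps18, 9 at Rps27, 13 at Rpl31, 7 at Rps21 and 6 at Rpl23. With the start base counted as 1 and the base before it as -1, the run began at base -2 and crossed the start at Rps18, Rps27 and Rps21, and began at base 2 at Rpl18. At Rpl23 it began at base 19 and at Rpl31 at base -18, where it ended before the start, so in these genes the capitals do not mark the base where the RefSeq transcript begins. Over the 63 matched members its median length was 9 bases, against 5 bases over 14861 protein-coding genes matched in the same way. A run of at least 8 bases was present at 41 of the 63 members (65.1%) and at 22.8% of all matched genes. The letters CTTTCC, searched on both strands of the whole window and free to lie within such a run, were found in 31 members (49.2%) and in 26.2% of all windows. The letters CCGGAAG, the core of the binding sequence of ETS factors and also searched on both strands, were found in 23 members (36.5%) and in 11.9% of all windows, and TATAAA in 6 members (9.52%) and 12.9% of all windows. The median GC content was 58% in members and 57% in all. Among members that passed the test described below, 12 of 21 matched ones that were higher in cluster2 had the run of 8 bases, and so had 4 of 5 that were lower and 22 of 32 that were not called. These are matches of letters in a fixed window and are no measure of binding or of translation.

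The files list, for each library, the read pairs between pairs of anchors. Totals ran from 65178 to 241202 read pairs in bulk and from 50508 to 118179 in cluster2. The anchors of the groups differed widely: after overlapping anchors had been joined, 216073 were used by bulk loops and 15082 by cluster2 loops, of which 15074 were used by both. Anchors within 5 kb of the start of a protein-coding gene took part in 44.7% ± 4.07 (SD, n = 12) of bulk read pairs and in 94.0% ± 0.237 (SD, n = 5) of cluster2 read pairs. Of the sorting markers, Cd38 had 36 bulk and 51 cluster2 read pairs and Epcam 13 and 25, and neither was called. Of 4 endoderm factors Gata4 and Foxa2 were called higher in cluster2, at log2 fold changes of 1.64 ± 0.24 and 1.42 ± 0.26, while Gata6 at -0.07 ± 0.47 and Sox17 at -0.65 ± 0.57 were not called. The list had a summed level of 83.0 to 382.9 normalised read pairs per 1e6 (CPM) over bulk libraries and 403.2 to 532.4 over cluster2 libraries. Of 6 neural factors the 5 with any read pair were all called lower, with summed levels of 758.6 to 1583 CPM in bulk and 37.3 to 86.1 CPM in cluster2, while Sox3 had no read pair in any library. These calls are from the fit described below, in which 20% of all genes tested were called higher in cluster2 and 40.9% lower. Whether a change in the mixture of cells takes part in the values below was not tested.

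Nearly all ribosomal protein genes had an anchor of each group at their start. All 85 had a bulk anchor within 5 kb of a start, against 85.9% of protein-coding genes, and 80 of them (94.1%) had a cluster2 anchor in that window, against 50.03%. For 79 members (92.9%) a start lay inside a cluster2 anchor, against 46.6% of all. Of the 85 members, 45 (52.9%) shared an anchor with the start of another protein-coding gene, against 28.4% of genes with an anchor, so that read pairs there cannot be assigned to either gene. These pairs of neighbours included Rpl18 with Sphk2 and Fam83e, Rpl19 with Cacnb1, Rps18 with Vps52 and B3galt4, and Rpl3l with another member, Rps2.

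The members had 6360 loops, which held 8570 of 1616066 bulk read pairs and 10410 of 409248 cluster2 read pairs. The share of a library's read pairs was 0.516% ± 0.0815 (SD, n = 12) in bulk, with a range of 0.402% to 0.645%, and 2.52% ± 0.101 (SD, n = 5) in cluster2, where the libraries had 2.66%, 2.53%, 2.38%, 2.51% and 2.52%. All 5 cluster2 libraries lay above all 12 bulk libraries, and the ratio of the means was 4.88. On loops between anchors that both groups used, the bulk share was 1.87% ± 0.166 and the cluster2 share stayed at 2.52% ± 0.101, a ratio of 1.35, and the ranges (1.61% to 2.22% and 2.38% to 2.66%) still did not overlap. On anchors with the same edges in both groups the means were 1.996% ± 0.191 and 2.67% ± 0.103. Taken as a share of the read pairs at protein-coding starts on these identical anchors, members held 2.30% ± 0.220 in bulk and 2.82% ± 0.109 in cluster2, a ratio of 1.23 at which the ranges (1.92% to 2.85% and 2.66% to 2.94%) overlapped.

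**Figure D1:**
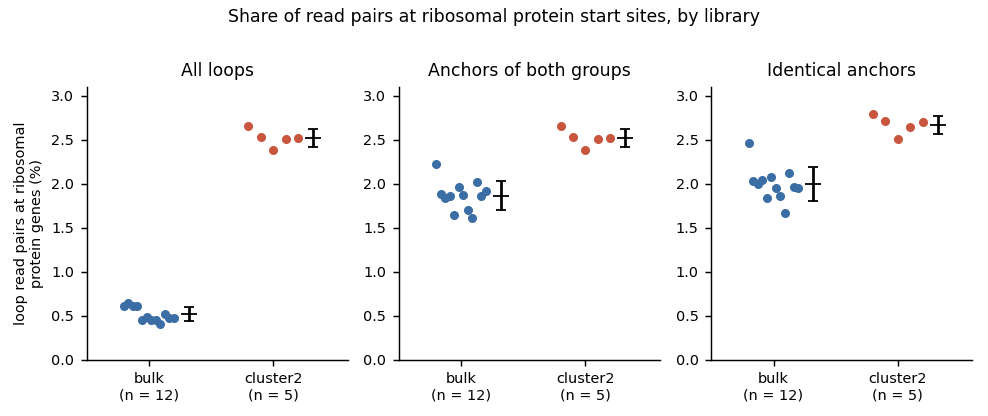
Share of loop read pairs (%) that reach the 5 kb window of a ribosomal protein start, 1 point per library, with the mean ± SD beside the points, for all loops, for loops on anchors of both groups and for loops on identical anchors. The bulk mean lies at 0.516% over all loops and at 1.87% and 1.996% in the other panels, while the cluster2 mean lies between 2.52% and 2.67% in all 3.

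For each gene the read pairs of all loops reaching the 5 kb window were summed. Genes with 20 or more read pairs that were seen in 5 or more libraries, 13719 in number, were fitted together by edgeR's quasi-likelihood test. A gene was called when its Benjamini-Hochberg adjusted p was under 0.05. Of the 85 members 80 passed this filter. In the whole fit 20% of genes were called higher in cluster2 and 40.9% lower, and the median log2 fold change was -0.43. That fit includes genes with no cluster2 anchor in the window, where no cluster2 read pair can be listed, while each of the 80 tested members had such an anchor. Among the 10948 tested genes with a cluster2 anchor 25.03% were called higher and 25.9% lower, and the median was 0.001 (log2). Of the members 27 were called higher (33.8%), 9 lower (11.2%) and 44 were not called, with a median log2 fold change of 0.19 and a range from -3.97 to 2.37. As the contrast belongs to the choice of the genes, nothing is read from these counts. When normalised by library size alone, 73 members were called higher and 3 lower and the median of all genes was 1.38. The distance of the members' median from that of all genes was 0.62 under the first scaling and 0.64 under the second. Genes with no cluster2 anchor take part in both distances, and on anchors of both groups the distance was -0.003.

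Large and small subunit genes were spread over the same range. Of 45 large subunit genes 17 were called higher and 3 lower, with a median log2 fold change of 0.28. Of 29 tested small subunit genes 8 were called higher and 6 lower, with a median of 0.12. The difference between the subunits was not tested. The 28 members with 2 or more cluster2 anchors in the window had 17 called higher and 1 lower, and the 52 with a single cluster2 anchor had 10 and 8. The same split over all genes gave 40.2% higher and 21.3% lower among 1978 genes with 2 or more cluster2 anchors, and 21.7% and 26.9% among 8970 genes with 1. Of 44 tested members that shared an anchor with another gene 21 were called higher and 4 lower, and of 36 that were alone 6 and 5. Of the 28 members with 2 or more cluster2 anchors 27 were among those that shared an anchor, so both splits sort largely the same members. The split by sharing was not made over all genes.

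Of the members' 10410 cluster2 read pairs 10409 lay on loops between anchors that both groups used. Limiting the loops to these anchors thus removed bulk read pairs almost alone. The share of bulk read pairs kept is therefore part of the fold change that gave the calls. Its order over the calls is no separate result. Of the bulk read pairs at a member, a median of 67% lay on these anchors in members called higher (26.9% to 88.9%). The median was 15.2% in members called lower (10.7% to 30.7%) and 28.99% in members not called (0% to 79.4%). On loops between anchors of both groups 9756 genes could be fitted. Of these 21.6% were called higher and 11% lower, and the median was 0.34 (log2). There 76 members were tested, 16 were called higher (21.1%) and 2 lower (2.63%), and their median, also 0.34, was that of all genes. Of the 27 members called higher over all loops 9 were called higher here, and of the 9 called lower 1, Rps21, was called lower here, 2 could not be tested and 6 were not called. Among the 9 were Rpl9, Rpl14, Rpl18, Rpl23, Rpl24, Rpl36, Rpl7l1 and Rps27. Another 7 members were called higher only on these loops: Rpl7, Rpl15, Rps6, Rps13, Rps19, Rps27l and Rpsa. Rps15 was the other member called lower on them. On identical anchors 8867 genes were tested, 19.9% higher and 10% lower, and of 75 members 17 were called higher and 2 lower.

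**Figure D2:**
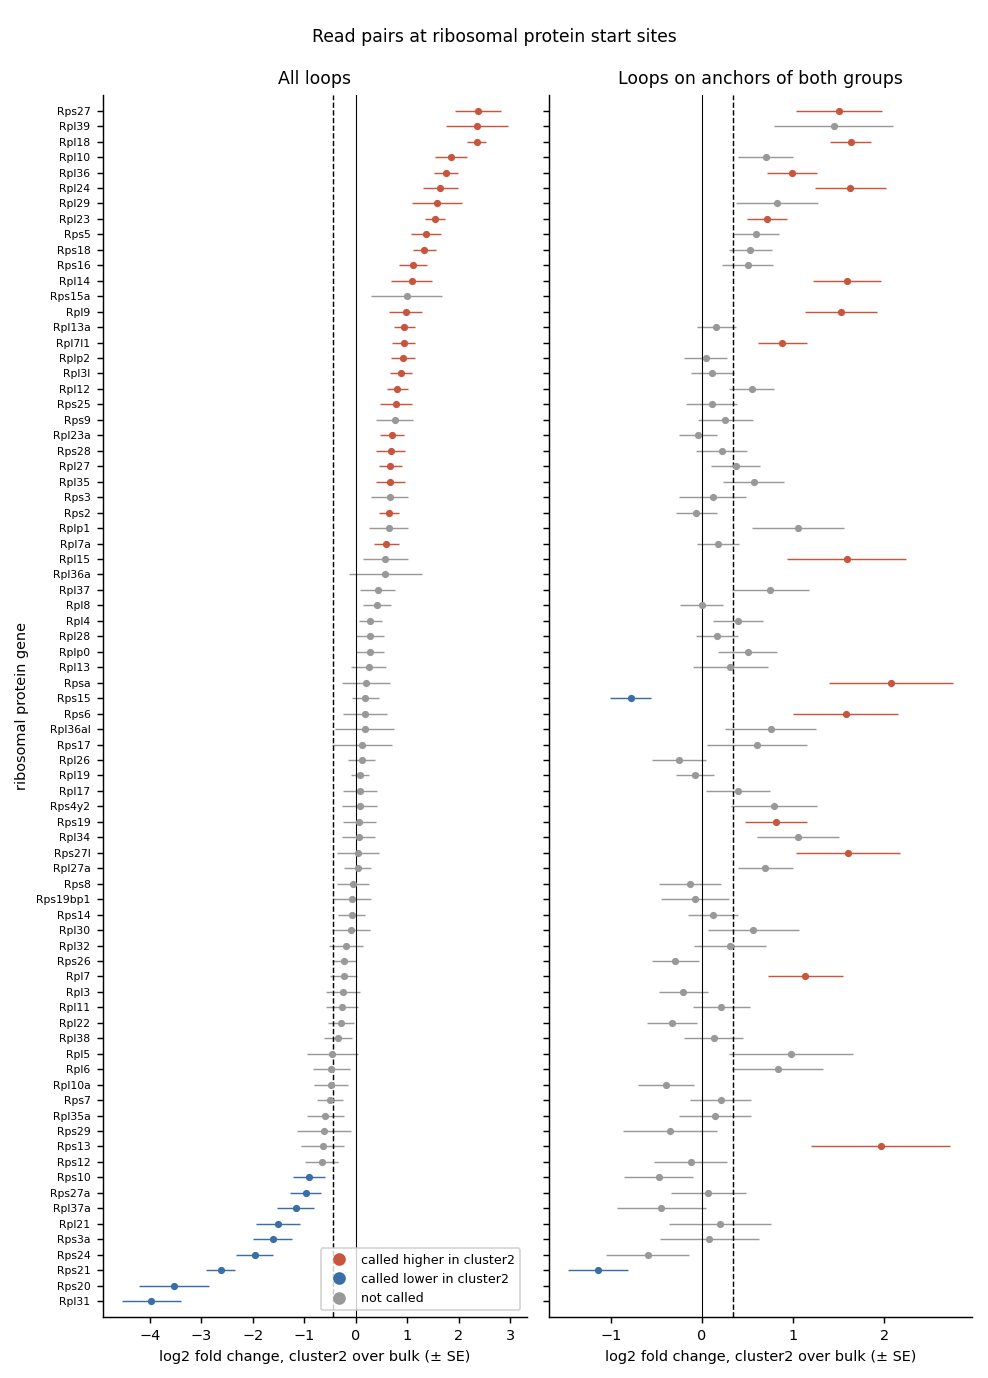
Log2 fold change of cluster2 over bulk (± SE, edgeR) of 78 of the 80 tested ribosomal protein genes, in the same order in both panels, over all loops and over loops on anchors of both groups. The solid line marks 0 and the dashed line the median of all genes tested (-0.43 and 0.34), and the low end of the left panel (Rpl31 at -3.97, Rps20 at -3.53) has no counterpart on the right, where these 2 genes could not be tested.

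Of the large subunit genes called higher, Rpl18 had the most read pairs in cluster2, 696, beside 150 in bulk. Its normalised level was 72.4, 124 and 207.5 CPM in the lowest, the median and the highest bulk library and 763.7, 607.5, 731.7, 646.1 and 646.0 CPM in the 5 cluster2 libraries. Every cluster2 library stood above every bulk library, as was so for 11 of the members and for 6.65% of all genes. The log2 fold change was 2.35 ± 0.19 (SE), and 1.63 ± 0.22 on anchors of both groups, where it was also called. Its anchors hold the starts of Sphk2, the gene of sphingosine kinase 2, and of Fam83e as well.

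Rpl23 encodes a protein of the large subunit that can also bind the p53 regulator MDM2. It had 73.5, 167 and 251.6 CPM in the lowest, median and highest bulk library and 511.5, 518.0, 350.9, 435.7 and 536.3 CPM in cluster2, with no overlap and a log2 fold change of 1.53 ± 0.20. Rpl36 had 20.7, 64.7 and 103 CPM in bulk and 245.2, 230.7, 186.7, 187.8 and 223.1 CPM in cluster2, with a log2 fold change of 1.75 ± 0.24. The groups did not overlap at either gene, and both were also called higher on anchors of both groups, at log2 fold changes of 0.72 ± 0.22 and 0.99 ± 0.27. Both share an anchor with another start, that of 1700001P01Rik at Rpl23 and that of 2410015M20Rik at Rpl36. Their levels cannot be assigned to these genes alone.

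Rpl10 is an X-linked gene whose protein joins the large subunit at a late step of its assembly. It had 0, 27.1 and 83.9 CPM in the lowest, median and highest bulk library and 161.1, 127.1, 134.4, 150.3 and 133.1 CPM in cluster2. Its log2 fold change of 1.85 ± 0.31 became 0.70 ± 0.30 on anchors of both groups, where it was not called, and 40 of its 45 bulk read pairs lay on those anchors. Rpl24, which stands alone in its anchors and is mutated in the Belly spot and tail mouse, had 0, 33.1 and 67.4 CPM in bulk and 143.6, 127.1, 82.1, 105.2 and 86.1 CPM in cluster2. Its log2 fold change was 1.64 ± 0.34, and 1.63 ± 0.39 on anchors of both groups.

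Among small subunit genes, Rps18 had 41.5, 106 and 194.5 CPM in the lowest, median and highest bulk library and 294.3, 240.2, 268.8, 255.4 and 293.6 CPM in cluster2. The groups did not overlap, and the log2 fold change was 1.33 ± 0.22 over all loops and 0.53 ± 0.24, not called, on anchors of both groups. Rps27, whose protein has a zinc finger, had few read pairs, 13 in bulk and 67 in cluster2. Its level was 0, 11.1 and 34.3 CPM in bulk and 91.1, 37.7, 59.7, 60.1 and 66.5 CPM in cluster2, and its log2 fold change was 2.37 ± 0.45, and 1.5 ± 0.47 on anchors of both groups.

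The members called lower were Rpl21, Rpl31, Rpl37a, Rps3a, Rps10, Rps20, Rps21, Rps24 and Rps27a. Rps21 had 355 bulk and 55 cluster2 read pairs. It had 194.5, 327.2 and 518.7 CPM in the lowest, median and highest bulk library and 63.1, 56.5, 52.3, 7.51 and 66.5 CPM in cluster2, so that every cluster2 library lay below every bulk library, as was so for 3 of the members and for 12.6% of all genes. Its log2 fold change was -2.63 ± 0.28, and -1.14 ± 0.33 on anchors of both groups, which held 54 of the 355 bulk read pairs. Rps21 is the member that lies on the distal part of chromosome 2, where 83.9% of the 379 genes tested from 150 Mb on were called lower and the median was -2.23 (log2).

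Rpl31 had 83 bulk and 4 cluster2 read pairs. Its level was 20.8, 68.0 and 207 CPM in the lowest, median and highest bulk library and 3.50, 9.42, 0, 0 and 3.92 CPM in cluster2, with a log2 fold change of -3.97 ± 0.57. Rps20, one of the genes whose mutation gives mice dark skin, had 56 bulk and 4 cluster2 read pairs, levels of 6.46, 52.3 and 179 CPM in bulk and 10.5, 4.71, 0, 0 and 0 CPM in cluster2, and a log2 fold change of -3.53 ± 0.68. Both genes had 1 cluster2 anchor, and of their bulk read pairs 10 and 6 lay on anchors that both groups used, beside the 4 cluster2 read pairs of each. On those anchors they had too few read pairs to be tested.

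Rps24, a gene mutated in Diamond-Blackfan anaemia in humans, had 77.5, 104 and 231 CPM in the lowest, median and highest bulk library and 35.0, 28.2, 0, 22.5 and 47.0 CPM in cluster2, without overlap and with a log2 fold change of -1.97 ± 0.35. Rps3a had 21.3, 71.1 and 147 CPM in bulk and 24.5, 9.42, 37.3, 15.0 and 39.1 CPM in cluster2. Rpl21 had 11.4, 67.4 and 119.5 CPM in bulk and 49.0, 14.1, 7.47, 30.1 and 7.83 CPM in cluster2. In both of these the groups overlapped, and the log2 fold changes of -1.62 ± 0.38 and -1.51 ± 0.43 became 0.08 ± 0.54 and 0.20 ± 0.56 on anchors of both groups, where neither was called. For Rps24 the value there was -0.60 ± 0.46.

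**Figure D3:**
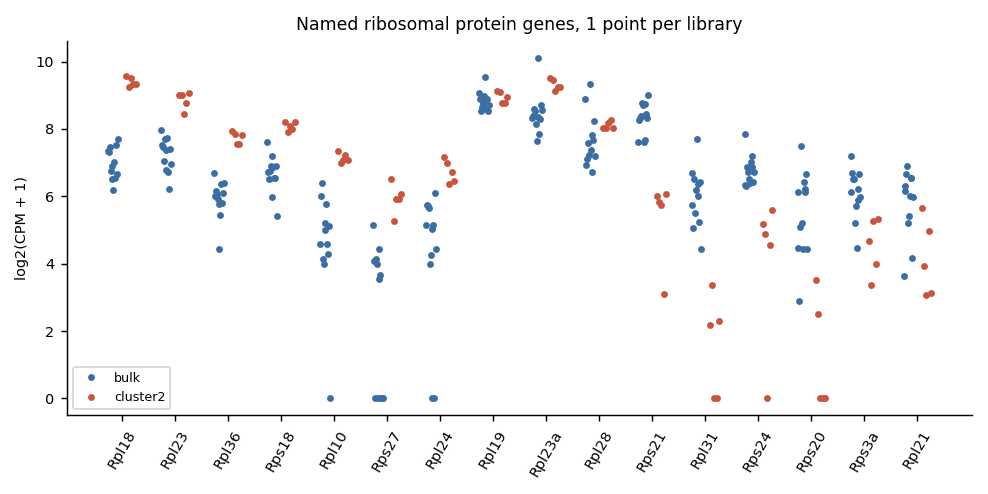
Levels of 16 ribosomal protein genes in log2(CPM + 1), 1 point per library, bulk beside cluster2. The cluster2 points stand above all bulk points for the 7 genes on the left, lie among them for Rpl19, Rpl23a and Rpl28, and are low or at 0 for Rpl31 and Rps20 near the right.

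Rpl19, Rpl23a and Rpl28 were among the members with the highest levels in bulk. Rpl19 had 518 read pairs in each group, with 368, 455.5 and 744.7 CPM in the lowest, median and highest bulk library and 560.5, 546.3, 433.1, 435.7 and 493.3 CPM in cluster2. The groups overlapped, and its log2 fold change was 0.09 ± 0.17, not called. It was -0.07 ± 0.21 on anchors of both groups and -0.40 ± 0.23 on identical anchors, also not called, and 127 of its cluster2 read pairs (24.5%) lay in 1 loop between anchors that were divided differently in bulk, described below. Rpl23a had 198, 330.4 and 1107 CPM in bulk and 732.1, 697.0, 560.0, 608.5 and 610.7 CPM in cluster2. It was called higher at 0.71 ± 0.23, though 1 bulk library lay above all cluster2 libraries, and its value on anchors of both groups was -0.04 ± 0.20, not called. Rpl28 had 104, 178 and 649.2 CPM in bulk and 262.7, 259.0, 291.2, 308.0 and 262.3 CPM in cluster2 and was not called at 0.27 ± 0.28. Set per kb of anchor, the mean level of members ran from 1.09 CPM per kb at Rpl39 to 49.55 CPM per kb at Rps14 in bulk, and the lowest in cluster2 was 0.222 CPM per kb at Rps20.

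The members with no cluster2 read pair were Rps4x, Rps23, Rpl10l, Rpl22l1 and Rpl39l. They had 4, 6, 3, 6 and 11 bulk read pairs, no cluster2 anchor in the window, and did not pass the filter. Without an anchor no read pair can be listed, so these counts of 0 say nothing about contact in cluster2. Rpl10l and Rpl39l are known as testis paralogs, while Rps4x and Rps23 encode regular proteins of the small subunit. Among the other paralogs, Rpl7l1 was called higher at 0.93 ± 0.22 and Rpl3l, the muscle form of Rpl3, at 0.88 ± 0.22, but Rpl3l shares its anchors with Rps2 and with other starts. Rpl36al had a log2 fold change of 0.17 ± 0.57, Rps27l, a known p53 target, one of 0.04 ± 0.41, Rps4y2 one of 0.07 ± 0.34 and Rps19bp1 one of -0.07 ± 0.37, and none of these 4 was called.

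Most loops at the members were thin. Of 6360 loops 3836 (60.3%) held a single read pair over all libraries, 1097 were seen in both groups, 3776 only in bulk and 1487 only in cluster2. Loops were tested one by one under the same filter, which 5369 loops passed, and 38.1% of these were called higher and 22.4% lower, the median being 0.78 (log2). Of the 120 that had an anchor at a member 52 were called higher (43.3%) and 4 lower (3.33%), with a median of 1.03. As the filter counts both groups together, a loop with few bulk read pairs passes only with many cluster2 read pairs, and the reverse. Leaving out cluster2 replicate 1, 2 or 5 gave 34, 32 or 33 loops called higher, and leaving out bulk replicate 5 or 11 gave 2 called lower. On identical anchors 3696 loops were tested, 51.7% higher and 10.8% lower, and of the 100 at members 57 were called higher and 1 lower.

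The most cluster2 read pairs of a single loop at a member were found at Rpl19 and Rpl18, and there the anchors themselves differed. Between the anchors at chr11:97880012-97885967 and chr11:97886961-97889667, both near the starts of Rpl19 and of Cacnb1, a calcium channel subunit gene, the 5 cluster2 libraries had 35, 31, 12, 14 and 35 read pairs and the 12 bulk libraries 2 in all. Between chr7:52967075-52971863 and chr7:52972415-52977354 at Rpl18 the cluster2 libraries had 39, 25, 14, 18 and 24 read pairs and the bulk libraries none. Both loops were called higher. However, no file listed a loop whose anchor middles lay closer than 5000 bp. At Rpl18 the second interval was a single anchor in cluster2, with its middle 5415.5 bp from that of the first, but was divided in bulk into chr7:52972415-52975289, at 4383 bp, and chr7:52975724-52977354, at 7070 bp. At Rpl19 the first interval was a single anchor in cluster2, 5324.5 bp from the second, but in bulk was divided into chr11:97880012-97882002, at 7307 bp, and chr11:97882473-97885967, at 4094 bp. Bulk read pairs between the nearer intervals could therefore not be listed, and no fold is given for these loops.

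**Figure D4:**
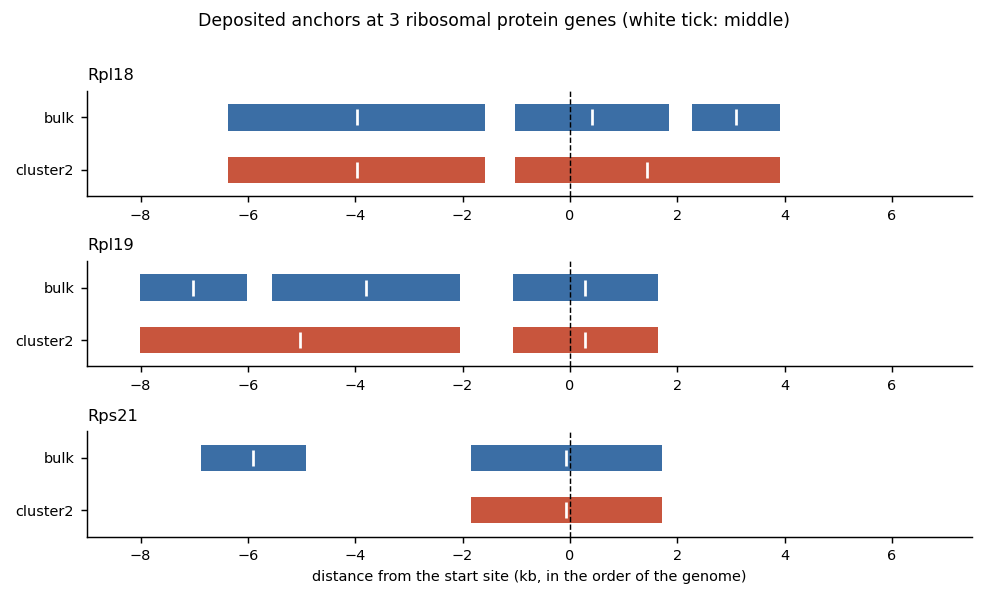
Anchors as deposited for bulk and cluster2 libraries around the starts of Rpl18, Rpl19 and Rps21, in kb from the start site in the order of the genome, with a white tick at the middle of each anchor and a dashed line at the start. At Rpl18 and Rpl19 1 cluster2 anchor covers 2 bulk anchors, which moves its middle, and at Rps21 the upstream anchor is used by bulk loops alone.

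The loops called lower with the smallest p were also at places where the anchors differed. From the Rpl19 start anchor to chr11:97926697-97929944, 40006.5 bp away, there were 24 bulk read pairs, in 10 of 12 libraries with 1 to 4 each, and none in cluster2. From the same anchor to chr11:97935156-97938283, 48405.5 bp away, there were 20 bulk read pairs and none in cluster2. At Rps21 the loop between its start anchor and chr2:179985202-179987159, 5834 bp away, had 22 bulk read pairs and none in cluster2. None of these 3 partner anchors was used by any cluster2 loop, so no read pair could be listed there and no fold is given. The fourth loop called lower joined identical anchors, from the anchor at starts of Rpl23a, Rab34 and Proca1 (chr11:78000801-78004294) to chr11:78017123-78020683, which holds no start, 16355.5 bp away. It had 42 bulk read pairs, 0 to 8 per library, and 0, 3, 1, 2 and 4 in the cluster2 libraries, with overlap and a log2 fold change of -2.31 ± 0.49, and was named after its values were seen.

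Other loops joined anchors with identical edges in both groups. One joined the anchor of Rpl36 and 2410015M20Rik (chr17:56747836-56754812) to that of Tmem146 and Lonp1, a mitochondrial protease gene (chr17:56765288-56768209). There cluster2 libraries had 10, 14, 4, 3 and 9 read pairs and 2 of 12 bulk libraries had 1 each, with a log2 fold change of 3.43 ± 0.68. Between the anchor of Rpl18 (chr7:52967075-52971863) and that of Dbp, a circadian transcription factor gene, and Car11 (chr7:52958945-52964464) cluster2 libraries had 31, 13, 13, 11 and 18 read pairs and bulk libraries 0 to 4, with 15 in all. The log2 fold change was 2.06 ± 0.42. Another joined the anchor of Rpl23a, Nek8 and Tlcd1 (chr11:77988934-77993578) to that of Traf4, a signalling adaptor gene (chr11:77976869-77981465). There cluster2 libraries had 34, 26, 9, 11 and 25 read pairs and bulk libraries 0 to 9, with 28 in all. Its value was 1.46 ± 0.37, and that of the loop from the same Rpl23a anchor to the anchor at another start of Rpl23a, shared with Rab34 and Proca1 (chr11:78000801-78004294), with 74 cluster2 and 18 bulk read pairs, was 1.54 ± 0.42. All 4 were called higher, where the median of all tested loops was 0.78. In the separate fit on identical anchors, from which no values of these loops are given, the median was 1.25. Only the loop to Traf4 had enough bulk read pairs to pass the filter on bulk libraries alone. The other loops entered the test through their cluster2 read pairs, so their calls and fold changes are in part selected by the filter.

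At the other end of their loops the members mostly met the start of another gene in cluster2, but not in bulk over all loops. In cluster2 79.0% ± 1.22 (SD, n = 5) of their read pairs reached the start of another protein-coding gene, 8.26% ± 0.792 stayed within 5 kb of starts of the same member and 12% ± 0.496 reached an anchor with no start. Over the loops of all protein-coding genes these shares were 62.7% ± 0.240, 7.08% ± 0.103 and 30.2% ± 0.232. In bulk the members' read pairs reached another gene in 47.1% ± 4.45 (SD, n = 12) and no start in 48.3% ± 4.15, and those of all genes in 21.3% ± 1.63 and 73.85% ± 1.74. On identical anchors the group difference of the members was small, 77.4% ± 3.21 in bulk and 80.5% ± 1.24 in cluster2 with overlapping ranges. The shares over all genes were 54.3% ± 1.40 and 64.3% ± 0.257 there. In each group every library had a higher share for members than for all genes. However, over all genes a loop between starts of different genes was counted once, though it has a gene at each end. This counting lowers the share over all genes, so the members' excess is set in part by it. A loop whose ends shared only a neighbour's start was counted as reaching another gene for members, but as the same gene over all genes. That rule, too, adds to the members' excess. Any excess beyond these ways of counting was not tested.

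**Figure D5:**
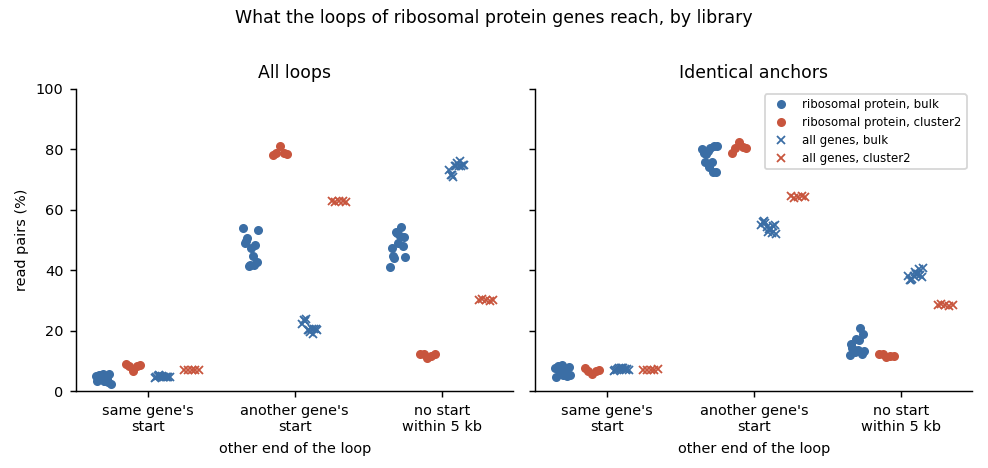
Percent of read pairs by what the other end of the loop reached, 1 point per library, for loops of ribosomal protein genes (dots) and of all protein-coding genes (crosses), over all loops and over identical anchors. The share that reached another gene's start was 47.1% in bulk and 79.0% in cluster2 over all loops and 77.4% and 80.5% on identical anchors.

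Contacts between different ribosomal protein genes were rare. They made up 19 loops with 29 bulk and 79 cluster2 read pairs. Over all loops these were 0.283% ± 0.238 (SD, n = 12) of the members' read pairs in bulk and 0.799% ± 0.329 (SD, n = 5) in cluster2. On anchors of both groups the shares were 0.66% ± 0.57 in bulk and 0.80% ± 0.33 in cluster2. On identical anchors they were 0.605% ± 0.485 and 0.71% ± 0.253, and in both settings the ranges overlapped. Each of the 19 loops joined genes of the same chromosome, as all listed loops do. Rpl3l and Rps2, 16729 bp apart, had 14 bulk and 25 cluster2 read pairs. Rpl19 and Rpl23 were joined by 4 loops of 239289 to 250060 bp, with 6 bulk and 17 cluster2 read pairs in all, and Rps18 and Rps28 by 2 loops with 2 and 11. Rpl36al and Rps29 had 3 and 7 read pairs.

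The median span of the members' read pairs was 115960 bp ± 12850 (SD, n = 12) in bulk, with a range of 97650 to 143358 bp, and 78670 bp ± 792 (SD, n = 5) in cluster2, with a range of 77802 to 79454 bp, so that the groups did not overlap. Over all protein-coding genes the medians were 124332 bp ± 6382 and 81056 bp ± 1041. On identical anchors the members had 85565 bp ± 15548 in bulk and 75014 bp ± 1165 in cluster2, and the groups overlapped. Short loops held the following shares. Read pairs spanning under 20 kb were 25.4% ± 1.20 of the members' total in cluster2 and 19.0% ± 1.58 in bulk, against 20.4% ± 0.414 and 17.95% ± 0.822 over all genes, and those under 6 kb were 6.75% ± 0.548 and 3.48% ± 0.848, against 1.97% ± 0.0562 and 1.64% ± 0.129. On identical anchors, which leave out the loops at Rpl18 and Rpl19 described above, the members' share under 6 kb was 5.18% ± 0.594 in cluster2 and 5.28% ± 1.42 in bulk.

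Other genes of the translation machinery were counted in the same fit from 3 lists, beside 20% of all genes called higher, 40.9% called lower and a median of -0.43. Among tested genes with a cluster2 anchor these values were 25.03%, 25.9% and 0.001. Of 18 translation factors and other genes with a TOP tract, 17 were tested, 7 were called higher and 2 lower, the median being 0.41 (log2). Among those called higher were Eef2, the elongation factor that moves the ribosome along the mRNA, at 1.00 ± 0.20, Eef1g at 1.72 ± 0.30, Eif4b at 1.70 ± 0.32, Gnb2l1, the scaffold protein of the small subunit, at 1.43 ± 0.30, Naca at 0.83 ± 0.17, and Fau, which encodes a ribosomal protein fused to a ubiquitin-like protein, at 0.80 ± 0.23. Lower were Eef1b2 at -1.12 ± 0.35 and Nap1l1 at -2.34 ± 0.40. Fau had the same values as Mrpl49 of the mitochondrial list below, 287 bulk and 473 cluster2 read pairs, so their calls are not separate. Of 17 ribosome biogenesis genes, all tested, 8 were called higher and 3 lower, with a median of 0.60. The nucleolar methyltransferase gene Fbl had 1.5 ± 0.25, while Npm1, the gene of the nucleolar protein nucleophosmin, had 102 bulk and 15 cluster2 read pairs and -2.64 ± 0.48. Polr1a and Wdr12, also called lower, had 52 and 20 bulk read pairs and none in cluster2. No cluster2 loop used an anchor in their windows, so these calls say nothing about contact in cluster2. Of 77 mitochondrial ribosomal protein genes 68 were tested, 20 were called higher and 18 lower, with a median of -0.07. Of those called lower, Mrpl21, Mrpl23, Mrpl33, Mrpl48, Mrps25, Mrps28 and Mrps30 had no cluster2 read pair, and the same limit holds for them. On anchors of both groups, where 21.6% of genes were called higher and 11% lower, the counts were 5 higher and 0 lower of 16 translation factors and TOP genes, 5 and 0 of 14 biogenesis genes and 9 and 4 of 56 mitochondrial genes.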

How the data were processed

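The 17 libraries were H3K27ac HiChIP of mouse embryonic stem cells after 4 days in 0.5 µM retinoic acid. Per the labels and the study's methods, reads were processed with HiC-Pro on mm9 and loops were called with hichipper, and replicates with few strong loops were removed by the authors. The deposited values are counts of read pairs per pair of anchors, not normalised, and loops with no read pair are not listed. Read filtering, alignment and anchor calling are already in these counts. Which samples gave each anchor set is not given in the sources used here.

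Anchors that overlapped between libraries were merged, which left 216081 anchors and 1211657 loops between them, with 700 read pairs inside a single joined anchor dropped. Gene starts were all protein-coding transcript starts of GENCODE vM1 (NCBIM37, the same build as mm9). A loop counted for each gene with a start within 5 kb of either anchor, so members that share an anchor share its read pairs. Fits used R 4.3.3 with edgeR 4.0.16 (TMM, quasi-likelihood test, Benjamini-Hochberg adjustment over all features), with SE from the fold change and the F statistic. Tables and figures used Python 3.11.15, numpy 2.4.6, pandas 2.3.3, scipy 1.17.1 and matplotlib 3.10.9. The fits were tested on simulated data. Depth, 50508 to 241202 read pairs per library, limits single loops to a few counts, and errors are spreads between libraries.

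The genes, lists and tests were chosen with earlier results of these data known. Named members were the 8 called higher and 6 called lower with the smallest p, the 4 with the highest mean CPM in each group, those with no cluster2 read pair, paralogs and Rps19bp1, any member on chromosome 1 from 130 Mb or chromosome 2 from 150 Mb, and the partner genes of named loops. Named loops were the 5 with the most read pairs and the 3 in each direction with the smallest p. Other genes named in the text, the marker genes and the genes of the 3 lists were chosen by list or as partners, and Rps14, Rpl39, Rpl9, Rpl14, Rps15 and the members changed on shared anchors were named after their values were seen. No pair of libraries of a group agreed within sampling noise (lowest chi-square per degree of freedom 1.10 over 76 pairs). Deviations of bulk and cluster2 libraries with the same number did not correlate (r from -0.02 to 0.01 over 5 pairs). Pairs of cluster2 libraries differed little beyond sampling noise (1.10 to 1.18 per degree of freedom), so this cannot tell whether the numbers pair them. Alternatives were library size alone, DESeq2 1.42.0 with poscounts size factors, a minimum of 50 read pairs, no filter, thinning to 50508 read pairs, spans of at least 20 kb, a 2.5 kb window, anchors of both groups, leaving out 3 regions, a replicate block and leaving out each library. Identical anchors were added after seeing the data. Some items that the rule names are not reported here.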

Additional observations from a re-analysis of the deposited data

Results flagged for a closer look

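In the cluster2 group, 2 of the 35 values tested held a library that stood apart from the other 4 by more than chance gives in 1 of 20 such groups. With 35 values tested, a count of this size can come from that rule alone. For Rps21 this was cluster2 replicate 4, with 7.51 CPM, where the other 4 libraries had 52.3 to 66.5 CPM. For the share of read pairs at ribosomal protein genes that reached the start of another gene it was cluster2 replicate 3, with 81.05%, where the nearest library had 78.7% and the lowest 77.9%.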

How the results depend on the processing

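The 27 members called higher and the 9 called lower became 73 and 3 with library size alone, 16 and 2 on anchors of both groups and 17 and 2 on identical anchors, and 14 were lower when only spans of at least 20 kb were used. Leaving out each library gave 23 to 27 higher and 9 to 10 lower. Of the member loops, 52 higher and 4 lower, library size alone gave 116 higher, a minimum of 50 read pairs 9 higher, thinning 32 higher and 1 lower, spans of at least 20 kb 33 and 2, and anchors of both groups and identical anchors 1 lower each. Leaving out each library gave 32 to 50 higher and 2 to 5 lower. The lower counts at the higher minimum and in thinned libraries come with fewer loops tested (22 and 48 of 120). The cause of the other changes was not tested.

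Whether the replicate number pairs the libraries could not be told. With that number as a block over libraries 1 to 5 of each group, 21 members were called higher and 12 lower, against 22 and 11 in the same libraries without the block. There 21 loops were higher and 1 lower with the block, against 28 and 2 without it.

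With library size alone the translation factors and TOP genes had 14 higher and 0 lower, the biogenesis genes 13 higher and the mitochondrial genes 49 higher and 8 lower. On anchors of both groups these lists had 0 lower, 5 higher and 0 lower, and 9 higher and 4 lower, and with spans of at least 20 kb 4 translation factors and TOP genes were lower.

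The bulk share of 0.516% became 0.408% with a 2.5 kb window, 1.87% on anchors of both groups and 1.996% on identical anchors. The cluster2 share of 2.52% became 2.06% with the 2.5 kb window, 2.655% without the 3 regions of raised counts, 2.67% on identical anchors and 2.37% for spans of at least 20 kb, and 2.48% to 2.55% on leaving out each cluster2 library. The share that reached another gene became 41.9% (2.5 kb), 77.6% (both groups) and 77.4% (identical) in bulk, and 80.5% (identical) and 85.3% (20 kb or more) in cluster2, with 78.4% to 79.2% on leaving out each cluster2 library. The median span became 90925 bp (both groups), 85565 bp (identical) and 141088 bp (each loop counted once) in bulk, and 76531 bp (2.5 kb), 75014 bp (identical) and 176241 bp (each loop once) in cluster2, with 78474 to 78887 bp on leaving out each cluster2 library.

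Over 31 named genes and loops, 790 of 838 alternatives kept the sign and the side of the threshold, 13 lost the call, 6 gained it and 29 changed sign. Of members called over all loops, those with a changed sign were Rps3a (0.19 with library size, 0.082 on anchors of both groups, 0.11 on identical anchors), Rpl21 (0.30, 0.20 and 0.17) and Rpl23a (-0.044 on anchors of both groups). The others were not called over all loops. Rpl19 had -0.010 with a minimum of 50 read pairs, -0.18 for spans of at least 20 kb, -0.074 on anchors of both groups and -0.40 on identical anchors. Rps19bp1 had 1.79 with library size, where it was called, 0.037 with DESeq2, 0.23 after thinning, 0.20 for spans of at least 20 kb, 0.12 with the replicate block, 0.11 in the same libraries without it, and -0.17 to 0.26 on leaving out each library, above 0 without bulk replicate 1 or 7. Rps27l had -0.044 with a minimum of 50, -0.039 without the 3 regions, -0.021 with the block, -0.094 without it, and -0.26 to 0.22 on leaving out each library, below 0 without cluster2 replicate 2 or 5 or bulk replicate 5, 6 or 9. Rpl36al had -0.13 to 1.08 on leaving out each library, below 0 without cluster2 replicate 2. Depth limits single loops, as 3836 of the 6360 held 1 read pair.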
